A study of Mus musculus with 19 samples.

Results

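The genes described here encode interferon-inducible GTPases of the mouse, 10 genes chosen by symbol: the immunity-related GTPases (IRGs) Iigp1, Irgm1, Irgm2, Igtp and Ifi47, and the guanylate-binding proteins (GBPs) Gbp2, Gbp3, Gbp5, Gbp6 and Gbp7. Each gene was measured by the brightest probe set annotated to it and to no other gene. By that rule 5 of the 10 were measured on their own, among 19752 genes in all: Iigp1 (gene ID 60440, chromosome 18, probe set 10455961), Irgm1 (gene ID 15944, chromosome 11, probe set 10385500), Gbp3 (gene ID 55932, probe set 10496580), Gbp5 (gene ID 229898, probe set 10496539) and Gbp7 (gene ID 229900, probe set 10496569), the last 3 on chromosome 3. The other 5 lay on probe sets annotated to more than 1 gene, which are described apart.

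The samples were NK cells from the spleens of 6-week-old male C57BL/6 mice, enriched by removing other cells, and RNA was hybridized to Affymetrix Mouse Gene 1.0 ST arrays. The 19 samples fell into 9 groups. Cells given IL-2 (250 U/ml, 8 h) together with a JAK1 inhibitor had 0.0625 µM (1 sample), 0.25 µM (2), 1 µM (2) or 4 µM (1) of it. Cells given the same IL-2 together with a JAK3 inhibitor had 0.25, 1 or 4 µM of it (2 samples each). IL-2 alone was given to 4 samples, and 3 samples were untreated. The labels give the inhibitors the code numbers 3404 (JAK1) and 6226 (JAK3) and state no structure. No label ties a sample to a mouse or a culture, so the replicate spread that p-values rest on may be technical. For 1 untreated sample the label gives no culture time.

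The values are log2 intensities, and a level of one probe set is not set against that of another. The arrays fell into a high-intensity set of 7 (medians 7.49 to 7.59) and a low-intensity set of 12 (medians 5.70 to 5.90). Groups at 0.25 and 1 µM, IL-2 alone and untreated cells had samples in both sets, while those at 0.0625 and 4 µM lay in the low set alone. Every test below therefore has a term for the set, and the levels printed are adjusted: each gene's fitted set term (1.36 to 2.10 log2 for the 5 genes) was taken off the samples of the high set. In the plots and text ± is the SD of a group or the standard error (SE) of a change, as named. Without detection calls in the table, the NK label could be checked by marker levels alone, and markers of NK and other cells moved between the groups. Of 10 NK cell markers measured, 9 were higher with IL-2 than in untreated cells, and of 10 macrophage and monocyte markers 7 were lower. With so few arrays per group, precision is set by their number.

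IRGs and GBPs are GTPases that are made in quantity when a cell receives interferon, above all interferon-gamma. They gather on the membranes of vacuoles that hold microbes, where IRGs of the effector type and GBPs break the membrane down and regulatory IRGs of the Irgm type keep the effectors inactive on the cell's own membranes. Interferon-gamma signals through JAK1 and JAK2 and acts at promoters with GAS elements (gamma-activated sites), while the type I interferons signal through JAK1 and TYK2 and act at ISRE elements (interferon-stimulated response elements). IL-2 itself signals through JAK1 and JAK3, and NK cells given IL-2 secrete interferon-gamma.

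Promoter sequence was read for the genes that moved together below, to show which interferon elements stand next to their starts. The RefSeq table (GRCm38.p6) holds 300-base windows, 250 bases before to 50 bases after a start. Windows were read for 8 of the 10 genes. None was read for Iigp1 or Gbp6, and the counts below leave both out. The ISRE core was searched as GAAA, any 2 bases and GAAA, and the GAS core as TTC, any 3 bases and GAA, on both strands. Of the 8 genes, 7 had a window with an ISRE core and 4 one with a GAS core, and 3.44% and 8.30% of all 32851 windows hold the one and the other. The windows of the 4 genes that have both a probe set of their own and a window read here follow. They run 5′ to 3′ on the gene's strand, with every match to either core in capitals.
Irgm1, chr11:48871371-48871670, minus strand: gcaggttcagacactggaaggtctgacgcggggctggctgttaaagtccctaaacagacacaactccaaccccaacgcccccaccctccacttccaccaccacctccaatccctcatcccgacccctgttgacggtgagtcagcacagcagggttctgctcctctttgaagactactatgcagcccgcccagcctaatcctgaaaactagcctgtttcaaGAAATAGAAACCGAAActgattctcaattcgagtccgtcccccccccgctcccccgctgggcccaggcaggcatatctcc
Gbp3, chr3:142559794-142560093, plus strand: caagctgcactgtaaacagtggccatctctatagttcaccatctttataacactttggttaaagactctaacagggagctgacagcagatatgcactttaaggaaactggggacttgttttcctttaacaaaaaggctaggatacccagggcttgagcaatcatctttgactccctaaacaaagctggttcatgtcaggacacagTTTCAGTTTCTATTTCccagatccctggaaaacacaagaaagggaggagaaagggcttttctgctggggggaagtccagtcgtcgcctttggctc
Gbp5, chr3:142496684-142496983, plus strand: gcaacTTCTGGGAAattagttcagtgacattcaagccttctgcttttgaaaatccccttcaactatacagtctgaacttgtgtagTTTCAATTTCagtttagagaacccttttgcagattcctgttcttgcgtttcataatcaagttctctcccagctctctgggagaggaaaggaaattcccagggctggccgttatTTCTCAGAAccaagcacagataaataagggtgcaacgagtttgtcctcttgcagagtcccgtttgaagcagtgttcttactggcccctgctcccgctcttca
Gbp7, chr3:142530086-142530385, plus strand: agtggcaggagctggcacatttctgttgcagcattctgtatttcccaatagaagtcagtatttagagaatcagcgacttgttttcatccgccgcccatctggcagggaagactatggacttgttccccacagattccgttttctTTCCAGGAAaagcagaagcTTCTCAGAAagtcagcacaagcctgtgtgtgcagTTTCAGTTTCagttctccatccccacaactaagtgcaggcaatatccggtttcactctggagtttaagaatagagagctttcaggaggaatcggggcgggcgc
In Irgm1 and in Gbp3 the capitals are 2 overlapping ISRE cores and no GAS core. In Gbp5 and in Gbp7 they are 1 ISRE core and 2 GAS cores. Irgm2 and Igtp had 1 of each, Gbp2 had 1 ISRE core and no GAS core, and the window of Ifi47 matched neither. A second start of Gbp3 in the table matched neither as well. The ISRE cores began between 165 and 24 bases before the start. A match is a run of letters and was not tested for binding.

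IL-2 raised the levels of all 5 genes measured on their own, between 2.73-fold and 9.66-fold. This comparison asks what 8 h of IL-2 does to the GTPases in NK cells. All 5 passed the test as higher, where 6.56% of all genes were called higher (limma, Benjamini-Hochberg adjusted p under 0.05). The median log2 change of the 5 was 2.71, beside -0.01 over all genes.

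Iigp1, an effector IRG that loads onto parasite vacuoles, had adjusted log2 levels of 7.20, 7.91, 7.49 and 7.31 with IL-2, against 3.87, 4.31 and 4.43 in untreated cells. The 4 IL-2 samples all stood far above the 3 untreated ones. The group means were 7.48 ± 0.31 with IL-2 and 4.20 ± 0.29 in untreated cells (SD, n = 4 and 3), a log2 change of 3.27 ± 0.16 (SE, limma adjusted p = 9.89e-11). Irgm1, the regulatory IRG that also takes part in autophagy, had 9.75, 9.95, 10.29 and 10.22 with IL-2, against 7.93, 6.99 and 7.12 in untreated cells. The groups did not overlap, and the untreated sample of the high-intensity set was the highest of its group. Its log2 change was 2.71 ± 0.24 (SE, limma adjusted p = 1.86e-07).

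Among the GBPs of the chromosome 3 cluster, Gbp5, which in mice promotes assembly of the NLRP3 inflammasome, had 8.13, 8.46, 8.71 and 8.65 with IL-2, against 6.10, 5.11 and 5.92 in untreated cells. The lowest IL-2 sample lay above every untreated one, and the change was 2.78 ± 0.21 (SE, limma adjusted p = 1.73e-08). Gbp7 had 10.002, 10.09, 10.24 and 10.22 with IL-2, against 7.77, 7.35 and 7.83 in untreated cells. Its IL-2 samples were the closest together of the 5 genes (SD 0.11), and the change was 2.48 ± 0.17 (SE, limma adjusted p = 4.87e-09). Gbp3 had 8.27, 8.54, 8.73 and 8.82 with IL-2, against 7.37, 6.75 and 7.31 in untreated cells. It rose the least of the 5, by 1.45 ± 0.19 (SE, limma adjusted p = 2.44e-05), and its groups did not overlap either.

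The direction was the same in each intensity set taken alone. The high set has 1 untreated sample, and it is the one whose label gives no culture time. Within the low set the 5 changes were 1.75 to 3.20 and all 5 were called, as were 738 of 19752 genes as higher. Within the high set they were 1.03 to 3.68 and 0 were called (adjusted p = 0.757), as were 0 of 19752 genes, with 1 residual degree of freedom. An unadjusted p under 0.05 was reached there by 5 of the 5 and by 1264 of all genes (limma).

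**Figure D1:**
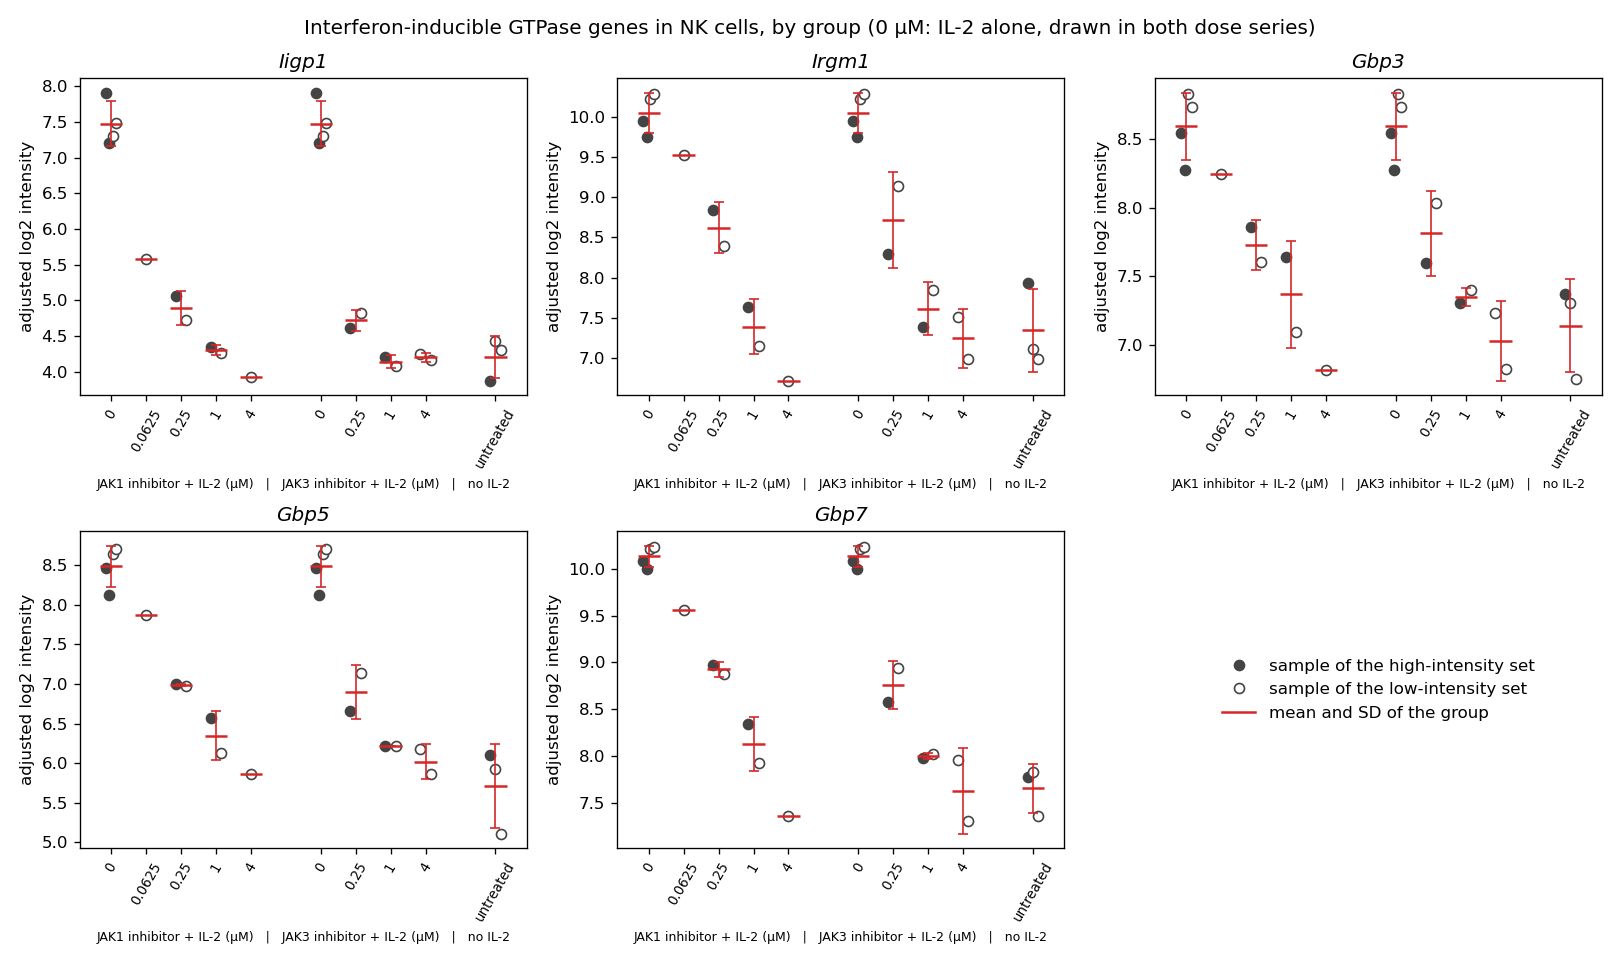
Adjusted log2 intensity of Iigp1, Irgm1, Gbp3, Gbp5 and Gbp7 in each sample, by inhibitor dose in µM, with IL-2 alone at 0 µM in both dose series and untreated cells at the right. Filled points are samples of the high-intensity set and open points of the low-intensity set, and bars are group mean and SD (no SD for 1 sample). In all 5 genes the IL-2 samples are highest and the 4 µM samples lie near the untreated ones.

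In the same samples markers of other cells moved. The summed linear intensity of the 10 NK cell markers in the low-intensity set was 11634 to 11650 with IL-2 and 2927 to 3179 in untreated cells. That of the 10 macrophage and monocyte markers was 2867 to 3055 with IL-2 and 7309 to 7417 in untreated cells. In the high-intensity set the NK sum was 38332 to 41960 with IL-2 and 16857 in the untreated sample, and the macrophage and monocyte sum 7117 to 7879 with IL-2 and 22964 in the untreated sample. Of the markers of other cells, 6 of 10 for neutrophils and 4 of 9 for B cells were lower with IL-2, of 8 for dendritic cells 1 was higher and 2 lower, and 0 of 10 for T cells passed. In bulk RNA fewer cells of a type and less RNA per cell cannot be told apart, and the part of these cells in the GTPase changes was not tested.

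The JAK3 inhibitor, given with IL-2, lowered all 5 genes at each of its 3 doses. At 0.25 µM 5 of 5 were called lower than with IL-2 alone, where 2.26% of all genes were called lower, and at 1 and 4 µM 5 of 5 again, where 3.69% and 4.50% were. The median log2 change of the 5 was -1.38, -2.27 and -2.51 at 0.25, 1 and 4 µM, beside 0.06, 0.02 and -0.04 over all genes. The 3 comparisons use the same 4 IL-2 samples. In the same comparisons 9, 9 and 7 of 10 NK cell markers were lower and 8, 8 and 7 of 10 macrophage and monocyte markers higher. Of all 19752 genes, 541, 565 and 594 were called higher there.

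Iigp1 had 4.62 and 4.82 at 0.25 µM, 4.20 and 4.08 at 1 µM, and 4.16 and 4.25 at 4 µM, against 7.20 to 7.91 with IL-2 alone. At the lowest dose both samples already stood below every IL-2 sample by more than 2 log2 units, and the 2 higher doses lay together. The changes against IL-2 were -2.76 ± 0.18, -3.34 ± 0.18 and -3.27 ± 0.19 (SE, limma adjusted p = 1.12e-08, 9.46e-10 and 1.48e-09). Irgm1 had 8.30 and 9.14 at 0.25 µM, 7.38 and 7.85 at 1 µM, and 6.98 and 7.51 at 4 µM, against 9.75 to 10.29 with IL-2 alone. Its samples at the lowest dose were far apart and lay between the untreated and the IL-2 samples. The changes were -1.33, -2.44 and -2.81 (limma adjusted p = 0.00465, 5.02e-06 and 1.45e-06).

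In the GBPs the group mean was lower at each higher dose, as in Irgm1 but not in Iigp1. Gbp5 had 6.65 and 7.14 at 0.25 µM, 6.21 and 6.22 at 1 µM, and 5.86 and 6.17 at 4 µM, against 8.13 to 8.71 with IL-2 alone, and Gbp7 had 8.57 and 8.93, then 7.98 and 8.02, then 7.30 and 7.95, against 10.002 to 10.24 with IL-2 alone. No sample with the inhibitor reached an IL-2 sample in either gene, and the changes at 0.25 µM were -1.59 ± 0.24 for Gbp5 and -1.38 ± 0.19 for Gbp7 (SE, limma adjusted p = 0.000187 and 9.15e-05). Gbp3 had 7.59 and 8.03 at 0.25 µM, 7.31 and 7.40 at 1 µM, and 6.83 and 7.24 at 4 µM, against 8.27 to 8.82 with IL-2 alone. Its changes were -0.78, -1.24 and -1.56 (limma adjusted p = 0.0388, 0.000762 and 9.28e-05).

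The calls at 0.25 µM rested on few samples. That of Gbp3 ended without either of the 2 inhibitor samples (adjusted p = 0.54 and 0.0875) or without IL-2 replicate 2, 3 or 4 (0.0689, 0.118 and 0.129), and that of Irgm1 without inhibitor replicate 1 (0.311), all by limma. Within the low-intensity set the 5 changes at 0.25 µM were -2.58 to -0.74, with 1 call, Iigp1 (limma adjusted p = 0.000222), where 67 of all genes were called lower. All 5 and 1980 of all genes had an unadjusted p under 0.05. Within the high set the changes were -2.94 to -0.81, with 0 calls (adjusted p = 1), as over all genes, and 5 and 939 of all genes at an unadjusted p under 0.05. At 1 µM the changes were -3.32 to -1.38 within the low set, where 4 and 162 of all genes were called lower and Gbp3 was not (0.0739). Within the high set they were -3.35 to -1.10, with 0 calls, as over all genes, and 5 and 1247 of all genes at an unadjusted p under 0.05. The 4 µM samples lie in the low set, where 5 of 5 and 437 of all genes were called lower.

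Over its 3 doses the JAK3 inhibitor gave log2 slopes of -0.74 to -0.26 per 4-fold step of dose. None of the 5 slopes passed the test, where 0.137% of all genes were called with a lower slope, and all 5 had an unadjusted p under 0.05 in limma, as had 1772 of the 19752 genes. Gbp7 came closest with a slope of -0.56 (limma adjusted p = 0.0533), then Irgm1 with -0.74 (0.0907). Iigp1 had the shallowest slope, -0.26. Its adjusted levels over these doses, 4.08 to 4.82, lay below the medians of the low-intensity arrays (5.70 to 5.90). Whether a floor of the signal limits this slope was not tested. The 5 slopes depended on single samples. They were -0.95 to -0.31 without replicate 1 of 0.25 µM, and -0.46 to -0.19 without replicate 2 of that dose. Without replicate 2 of 4 µM they were -0.87 to -0.28, and without replicate 1 of 4 µM -0.61 to -0.24.

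The JAK1 inhibitor, given with IL-2, lowered all 5 genes at its 3 higher doses, and in the 1 sample at its lowest dose Iigp1 was called lower. At 0.0625 µM 1 of 5 was called lower than with IL-2 alone, where 0.0152% of all genes (3 genes in all) were. At 0.25, 1 and 4 µM 5 of 5 were called lower each time, where 1.52%, 2.31% and 2.63% of all genes were. The median log2 change of the 5 was -0.58, -1.43, -2.14 and -2.77 from the lowest to the highest dose, beside 0.08, 0.05, 0.08 and -0.10 over all genes.

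Iigp1 had 5.57 in the 1 sample at 0.0625 µM, 5.06 and 4.73 at 0.25 µM, 4.35 and 4.26 at 1 µM, and 3.93 in the 1 sample at 4 µM, against 7.20 to 7.91 with IL-2 alone. Each dose lay below the one before it without overlap. The changes against IL-2 were -1.90 ± 0.24, -2.58 ± 0.18, -3.17 ± 0.18 and -3.55 ± 0.24 (SE, limma adjusted p = 0.00173, 1.62e-07, 4.80e-09 and 3.51e-08). Irgm1 had 9.53 at 0.0625 µM, 8.84 and 8.40 at 0.25 µM, 7.63 and 7.15 at 1 µM, and 6.72 at 4 µM, against 9.75 to 10.29 with IL-2 alone. Its sample at the lowest dose stood just below the IL-2 samples, and its change there was -0.52 ± 0.36 (SE, limma adjusted p = 0.574). At 4 µM the change was -3.33 ± 0.36, a 10.1-fold lower level (SE, limma adjusted p = 7.59e-06).

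Gbp5 had 7.87 at 0.0625 µM, 6.995 and 6.973 at 0.25 µM, 6.57 and 6.13 at 1 µM, and 5.86 at 4 µM, against 8.13 to 8.71 with IL-2 alone. Gbp7 had 9.56 at 0.0625 µM, 8.98 and 8.87 at 0.25 µM, 8.34 and 7.92 at 1 µM, and 7.36 at 4 µM, against 10.002 to 10.24 with IL-2 alone. Both showed the same steady order of doses, with the lowest dose just under the IL-2 samples. The changes at 0.0625 µM, which did not pass, were -0.62 for Gbp5 and -0.58 for Gbp7 (limma adjusted p = 0.437 and 0.38), and at 4 µM they were -2.62 and -2.77 (2.28e-05 and 1.29e-06). Gbp3 had 8.25 at 0.0625 µM, 7.86 and 7.60 at 0.25 µM, 7.64 and 7.10 at 1 µM, and 6.82 at 4 µM, against 8.27 to 8.82 with IL-2 alone. Its doses of 0.25 and 1 µM overlapped, and its changes at 0.0625, 0.25, 1 and 4 µM were -0.35, -0.86, -1.22 and -1.77 (limma adjusted p = 0.638, 0.0388, 0.00108 and 0.000597).

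Over its 4 doses the JAK1 inhibitor gave slopes below 0 that passed in 5 of 5 genes, where 1.96% of all genes were called with a lower slope. These slopes cover other doses than those of the JAK3 inhibitor, and the difference between the inhibitors' slopes was not tested. Irgm1 had the steepest, -0.97 per 4-fold step, followed by Gbp7 with -0.74, Gbp5 with -0.67, Iigp1 with -0.55 and Gbp3 with -0.46 (limma adjusted p = 0.000483, 0.000216, 0.00419, 0.00229 and 0.0269). Within the low-intensity set, which holds all samples at 0.0625 and 4 µM, 4 of 5 slopes passed and that of Gbp3 did not (-0.48, limma adjusted p = 0.142).

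The calls at 0.25 µM rested on few samples here too. Without replicate 2 of that dose the calls of Irgm1, Gbp5, Gbp7 and Gbp3 ended (limma adjusted p = 0.292, 0.0774, 0.1 and 0.596), which left Iigp1. That of Gbp3 also ended without replicate 1 (0.172) or without IL-2 replicate 2, 3 or 4 (0.0813, 0.127 and 0.146), and at 1 µM without replicate 2 (0.185). Within the low-intensity set the changes at 0.25 µM were -2.67 to -1.17 with 2 calls, Iigp1 and Irgm1, where 46 of all genes were called lower. All 5 and 1446 of all genes had an unadjusted p under 0.05. Within the high set the changes were -2.49 to -0.55 with 0 calls, as over all genes, and 4 and 787 of all genes at an unadjusted p under 0.05. At 1 µM they were -3.14 to -1.68 within the low set with 5 calls, where 174 of all genes were called lower. Within the high set they were -3.20 to -0.76 with 0 calls, as over all genes, and 4 and 994 of all genes at an unadjusted p under 0.05.

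Set on one scale, where 0% is the mean of the untreated samples and 100% that of IL-2 alone on the log2 scale, Iigp1 kept the smallest share of its IL-2 difference at the lower doses. At 0.25 µM of the JAK1 inhibitor Gbp7 kept 51.2 ± 3.04%, Irgm1 47.1 ± 11.7%, Gbp5 45.9 ± 0.56% and Gbp3 40.5 ± 12.5%, while Iigp1 kept 21.1 ± 7.24% (SD, n = 2 each). At 0.25 µM of the JAK3 inhibitor the shares were 50.7 ± 21.9% for Irgm1, 46.2 ± 21.3% for Gbp3, 44.4 ± 10.3% for Gbp7, 42.7 ± 12.4% for Gbp5 and 15.8 ± 4.44% for Iigp1 (SD, n = 2 each). At 0.0625 µM of the JAK1 inhibitor the single sample kept 41.8% for Iigp1 and 76.1 to 80.8% for the other 4. The difference between genes in these shares was not tested. The adjusted levels of Iigp1 at 0.0625 and 0.25 µM, 4.62 to 5.57, lay below the medians of the low-intensity arrays (5.70 to 5.90). Whether a floor of the signal bears on the shares of Iigp1 was not tested. At 4 µM the shares were -23.1 to 5.55% with the JAK1 inhibitor and -7.70 to 11.01% with the JAK3 inhibitor.

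**Figure D2:**
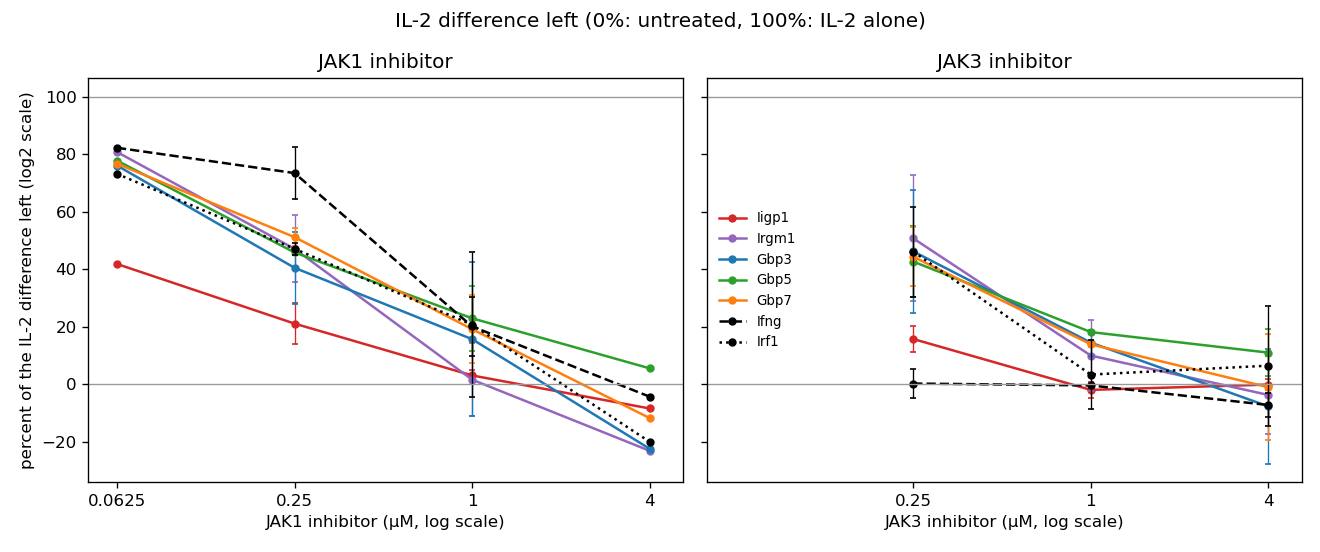
Percent of the IL-2 difference left on the log2 scale (0% untreated, 100% IL-2 alone) by dose of the JAK1 inhibitor, left, and of the JAK3 inhibitor, right, on a log dose axis. Points are group means and bars SD (none for 1 sample), with Ifng dashed and Irf1 dotted for comparison. Iigp1 is the lowest of the 5 GTPases at 0.0625 and 0.25 µM, and Ifng is at 73.5% with 0.25 µM of the JAK1 inhibitor and at 0.26% with the same dose of the JAK3 inhibitor.

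At 4 µM neither inhibitor left a detectable difference from untreated cells. With the JAK1 inhibitor the 5 log2 differences were -0.63 to 0.15, and with the JAK3 inhibitor -0.11 to 0.31. None was called, as was none of all genes (0%), and none of the 5 had an unadjusted p under 0.05 in either comparison, where 1270 genes of the whole table had one with the JAK1 inhibitor and 1714 with the JAK3 inhibitor (limma). These samples do not show that the levels were equal: Irgm1, with 4 µM of the JAK1 inhibitor, had 6.72 in its 1 sample against 6.99 to 7.93 in untreated cells.

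Ordered by fitted level over the 9 groups, IL-2 alone was highest and 0.0625 µM of the JAK1 inhibitor next in all 5 genes. The lowest was 4 µM of the JAK1 inhibitor in 4 genes and untreated cells in Gbp5. In Iigp1 the order was IL-2, JAK1 inhibitor 0.0625 µM, JAK1 inhibitor 0.25 µM, JAK3 inhibitor 0.25 µM, JAK1 inhibitor 1 µM, untreated, JAK3 inhibitor 4 µM, JAK3 inhibitor 1 µM and JAK1 inhibitor 4 µM. Of its 8 pairs of neighbours, 1 differed by the test, namely IL-2 and JAK1 inhibitor 0.0625 µM (1.90 log2). In each of the other 4 genes 0 of 8 pairs did.

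At matched doses no difference between the inhibitors was detectable in the GTPases. The JAK1 and JAK3 inhibitors were compared in 15 pairs, 5 genes at 3 doses, and 0 of 15 passed (limma adjusted p = 1 for each), with 0 at an unadjusted p under 0.05. Over all genes 0.238% were higher and 0.213% lower with the JAK1 inhibitor at 0.25 µM, and 0% at 1 and 4 µM, where 167 and 532 genes had an unadjusted p under 0.05.

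At 0.25 µM Iigp1 had 5.06 and 4.73 with the JAK1 inhibitor and 4.62 and 4.82 with the JAK3 inhibitor, and the samples interleaved. The difference, JAK1 minus JAK3 inhibitor, was 0.18 with a 95% interval of -0.26 to 0.61. The differences of the other 4 genes at that dose were -0.10 for Irgm1 (-0.76 to 0.56), -0.08 for Gbp3 (-0.60 to 0.44), 0.09 for Gbp5 (-0.48 to 0.66) and 0.17 for Gbp7 (-0.29 to 0.63). The intervals at this dose reach down to -0.76 and up to 0.66, and the tests do not show that the inhibitors act alike. At 1 µM the differences ran from -0.23 for Irgm1 (-0.89 to 0.43) to 0.16 for Iigp1 (-0.27 to 0.60). At 4 µM all 5 were below 0, from -0.53 for Irgm1 (-1.33 to 0.28) to -0.15 for Gbp5 (-0.85 to 0.54). Their signs depended on the set of arrays: at 0.25 µM they were -0.74 to -0.06 within the low-intensity set and 0.26 to 0.54 within the high one, and none was called in either.

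The gene of interferon-gamma did separate the inhibitors at the lowest shared dose. Ifng had 9.17 and 8.69 with 0.25 µM of the JAK1 inhibitor, against 6.03 and 6.30 with 0.25 µM of the JAK3 inhibitor. The JAK3 samples lay at the level of untreated cells (6.09 to 6.27) and the JAK1 samples nearer to IL-2 alone (9.76 to 10.27). The difference was 2.76 ± 0.22 (SE, 95% interval 2.31 to 3.22, limma adjusted p = 1.56e-06). Socs1, a feedback inhibitor of JAKs, had 7.87 and 8.05 with the JAK1 inhibitor, against 6.78 and 6.98 with the JAK3 inhibitor, a difference of 1.08 ± 0.18 (SE, 95% interval 0.71 to 1.45, limma adjusted p = 0.00603). Irf1, the transcription factor that interferon-gamma induces, gave 0.02 (limma adjusted p = 1). At 1 and 4 µM Ifng gave 0.77 and 0.11, and neither passed (limma adjusted p = 1). In the JAK1 samples at 0.25 µM Ifng kept 73.5% of its IL-2 difference and the 5 GTPases 21.1 to 51.2% of theirs. In the JAK3 samples at that dose Ifng was at 0.26% and the GTPases at 15.8 to 50.7%. Of the 20 interferon signalling genes counted below, 2 were called higher with the JAK1 inhibitor at 0.25 µM and 0 lower. Over all genes 0.238% and 0.213% were. Usp18, a gene of that list, lay the other way without a call. It kept 21.3% with the JAK1 inhibitor and 63.2% with the JAK3 inhibitor.

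**Figure D3:**
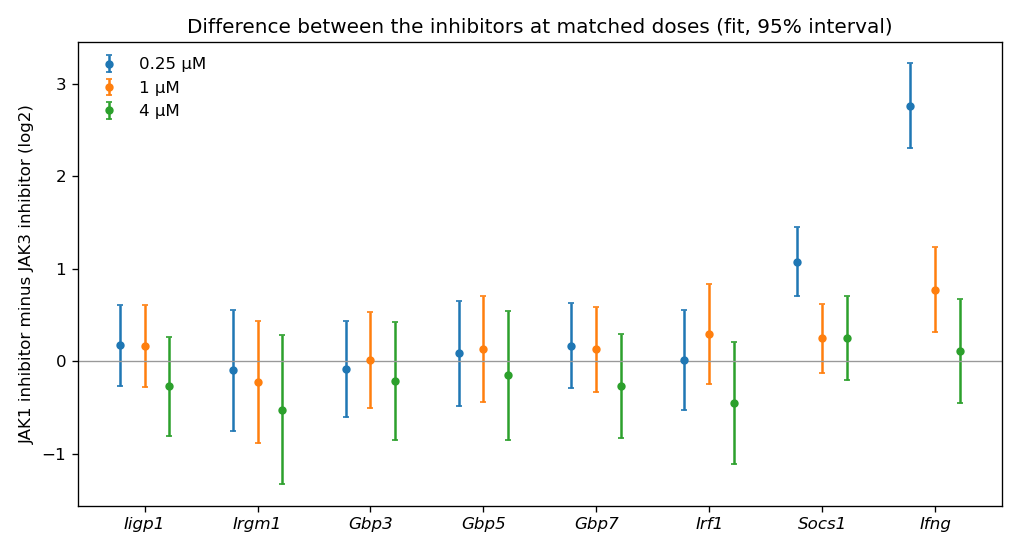
Difference in log2 level between the JAK1 and the JAK3 inhibitor at 0.25, 1 and 4 µM for the 5 GTPases and for Irf1, Socs1 and Ifng. Points are fitted differences and bars 95% intervals. All 15 intervals of the GTPases cross 0, and at 0.25 µM those of Ifng (2.31 to 3.22) and Socs1 (0.71 to 1.45) do not.

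NK cell markers moved at this dose as well. Of 10, 3 were higher with the JAK1 than with the JAK3 inhibitor at 0.25 µM, and their sum was 8963 with the JAK1 inhibitor and 3891 with the JAK3 inhibitor in the low-intensity set (33232 and 16975 in the high set). Of 10 macrophage and monocyte markers 7 were lower with the JAK1 inhibitor. Against IL-2 alone, 0 of 10 NK markers were called lower and 5 of 10 macrophage and monocyte markers higher at 0.25 µM of the JAK1 inhibitor. At 0.25 µM of the JAK3 inhibitor 9 of 10 NK markers were lower and 8 of 10 macrophage and monocyte markers higher. At 1 and 4 µM, 7 and 6 of 10 NK markers were lower with the JAK1 inhibitor, and 9 and 7 with the JAK3 inhibitor. At these doses 7 and 7 of 10 macrophage and monocyte markers were higher with the JAK1 inhibitor, and 8 and 7 with the JAK3 inhibitor. Of 10 neutrophil markers 5 and 4 were higher with the JAK1 inhibitor, and 5 and 3 with the JAK3 inhibitor. Of all 19752 genes, 144, 562 and 225 were called higher than with IL-2 alone at 0.25, 1 and 4 µM of the JAK1 inhibitor. At 0.0625 µM of the JAK1 inhibitor none of the 3 lists had a called gene. Their part in the results was not tested.

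The 5 genes without a probe set of their own were read on 4 shared probe sets, in a fit on all 24922 probe sets that was added after the values had been seen. In that fit, 5.67% of probe sets were called higher with IL-2. All 4 shared sets rose with IL-2. The set annotated to Gbp2 and Gbp2b (10496592), GBPs of the chromosome 3 cluster, is given as log2 of the deposited intensities, without adjustment. In the high-intensity set it had 12.76 and 12.86 with IL-2 against 9.88 in the untreated sample. In the low set it had 11.37 and 11.52 against 6.97 and 7.66. This probe set changed by 3.60 ± 0.32 (SE, limma adjusted p = 8.08e-07), with no overlap between the groups in either intensity set. The set of Gbp6 with Gbp4, Gbp8, Gbp9, Gbp10 and Gbp11 (10531994), the chromosome 5 cluster, changed by 3.04 ± 0.21 (6.21e-08). The set of Irgm2 and Igtp (10376326), both regulatory IRGs, changed by 2.67 ± 0.20 (1.28e-07), and that of Ifi47, an effector IRG, and the odorant receptor gene Olfr56 (10375515) by 2.22 ± 0.22 (2.87e-06). Which gene of a shared set gave the signal cannot be told apart.

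With the inhibitors the shared sets moved like the 5 genes. With the JAK3 inhibitor 4 of 4 were lower at each dose, where 1.99%, 3.42% and 4.29% of probe sets were called lower at 0.25, 1 and 4 µM. At 0.25 µM the changes were -1.81 to -1.23. With the JAK1 inhibitor 0 of 4 were lower at 0.0625 µM (-0.63 to -0.34, where 0.00401% were), 3 of 4 at 0.25 µM (where 1.28% were) and 4 of 4 at 1 and 4 µM (where 2.20% and 2.42% were). The set of Gbp2 and Gbp2b was the one that missed at 0.25 µM, with -1.31 ± 0.36 (SE, limma adjusted p = 0.0747), and at 4 µM it gave -4.50 ± 0.48 (2.46e-05). None of the 4 was called different between the inhibitors at a matched dose, where 0.144% of probe sets were higher and 0.104% lower with the JAK1 inhibitor at 0.25 µM, and 0.00803% higher at 4 µM. Against untreated cells 0 of 4 were called at 4 µM of the JAK1 inhibitor, where 0.00803% of probe sets were higher, or at 4 µM of the JAK3 inhibitor, where 0% were. All 4 had a called lower slope over the doses of the JAK1 inhibitor (1.66% of probe sets did), and 1, that of Irgm2 and Igtp, over those of the JAK3 inhibitor (0.177%). In this fit, with its larger number of tests, Gbp3 missed the threshold at 0.25 µM of the JAK3 inhibitor (0.0568) and of the JAK1 inhibitor (0.0554).

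Further GTPase genes, not all of them known to be induced by interferons, were counted from a list of 19, of which 11 had a probe set of their own. With IL-2 9 of the 11 rose, with a median log2 change of 1.84. They were led by Gm12250, also called Irgb10, an effector IRG (3.35), and Gbp4 (3.20), followed by Gm4951 (2.06), Gbp9 (2.00), the antiviral GTPase gene Mx1 (1.93), Gbp8 (1.84), Gbp11 (1.76), Mx2 (1.27) and Gbp2b (1.16). Irgq (-0.04) and Irgc1 (0.00) did not pass. With the JAK3 inhibitor 8, 9 and 9 of the 11 were lower at 0.25, 1 and 4 µM, and Mx2 (-0.57, limma adjusted p = 0.274) was the one that passed only at the 2 higher doses. With the JAK1 inhibitor 0 were lower at 0.0625 µM and 9 at each higher dose. At the lowest dose Gm4951 was the furthest down, with -1.48 (limma adjusted p = 0.0554). At a matched dose 0 of 11 were called different between the inhibitors.

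**Figure D4:**
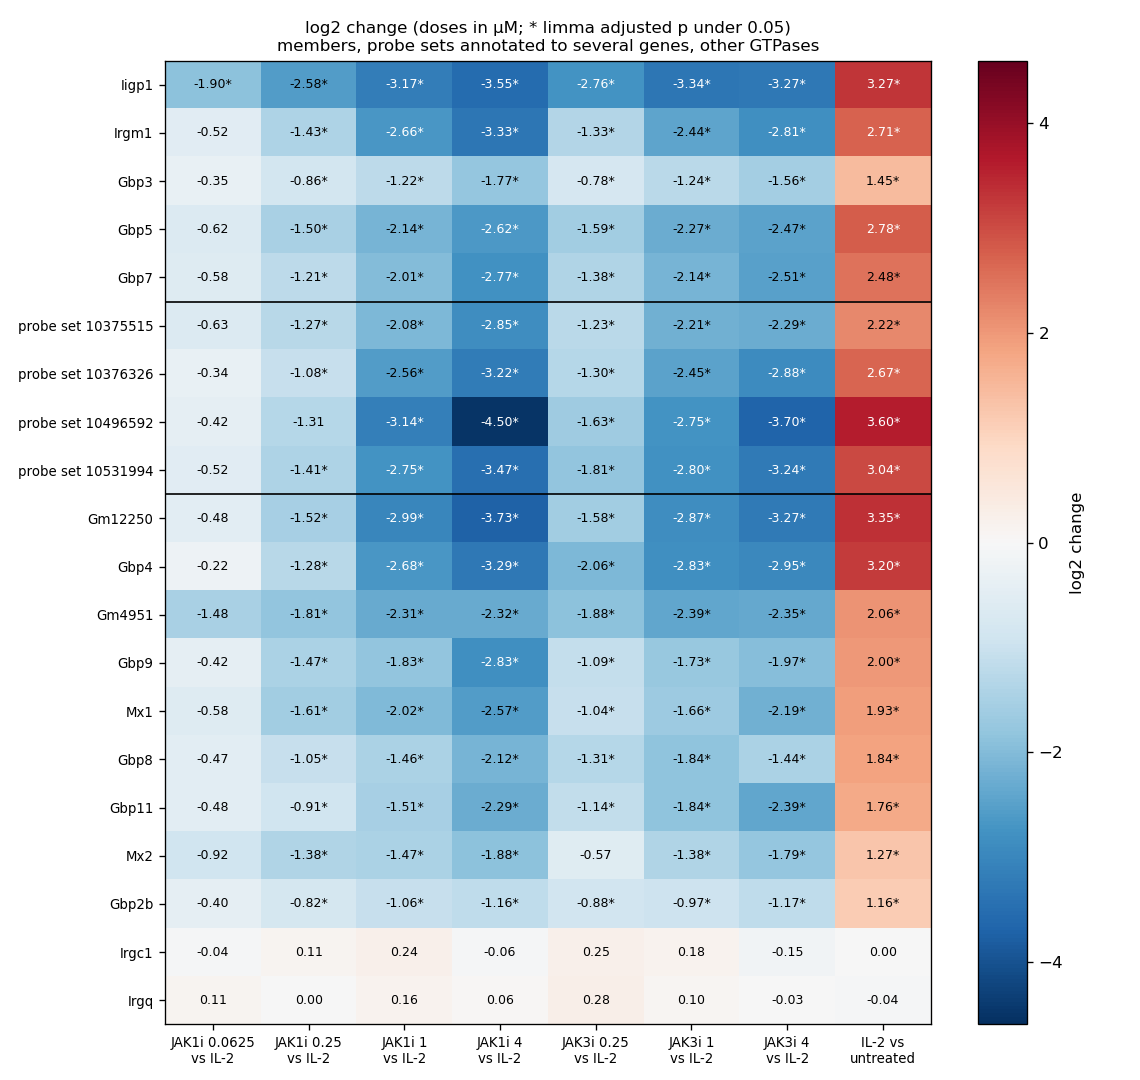
Log2 change of each GTPase gene or probe set (rows: the 5 genes, the 4 shared probe sets, 11 further GTPase genes) in 8 comparisons (columns, doses in µM), coloured from blue (lower) to red (higher), with an asterisk for a limma adjusted p under 0.05. All rows but Irgc1 and Irgq are blue with the inhibitors and red with IL-2, and the column for 0.0625 µM of the JAK1 inhibitor is the palest of the inhibitor columns.

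Genes upstream of the GTPases were counted from a list of interferon ligands, receptors and signalling genes, of which 20 of 21 were measured. With IL-2 8 rose and 1 fell. Ifng rose by 3.78, Socs1 by 3.01, and Usp18, which blunts type I interferon signalling, by 3.00. Stat2 rose by 1.74, Irf1 by 1.69, Irf8 by 1.24, Socs3 by 0.86 and Irf9 by 0.81, and the receptor chain gene Ifngr2 changed by -0.85. Jak1 did not pass (-0.26, limma adjusted p = 0.238). At 0.25 µM of the JAK3 inhibitor 6 fell and 1 rose: Ifng (-3.77), Socs1 (-2.35), Irf8 (-0.93), Irf1 (-0.91), Socs3 (-0.67) and the phosphatase gene Ptpn2 (-0.56) fell, and Ifngr2 (1.09) rose. At 0.25 µM of the JAK1 inhibitor 5 fell, namely Usp18 (-2.36), Socs1 (-1.27), Stat2 (-1.25), Ifng (-1.002) and Irf1 (-0.89), and 0 passed at 0.0625 µM. At 4 µM 7 fell with the JAK1 inhibitor, and 9 fell and 2 rose with the JAK3 inhibitor. Of all 19752 genes, 1296 rose and 512 fell with IL-2. With the JAK3 inhibitor 446 of them fell and 541 rose at 0.25 µM, and 889 fell and 594 rose at 4 µM. With the JAK1 inhibitor 301 of them fell at 0.25 µM and 520 at 4 µM.

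Partners of the GTPases, which load them onto membranes or act after them, were counted from a list of 20, of which 19 were measured. With IL-2 2 rose and 2 fell, where 1296 of the 19752 genes rose and 512 fell. Casp4, the caspase that senses bacterial lipopolysaccharide (0.98), and the ubiquitin ligase gene Trim21 (1.00) rose, and the autophagy receptor gene Sqstm1 (-0.62) and the inflammasome sensor gene Nlrp3 (-0.56) fell. At 0.25 µM Casp4 fell with the JAK1 inhibitor and 2 genes rose with the JAK3 inhibitor. At 4 µM 2 fell with the JAK1 inhibitor, and 2 fell and 3 rose with the JAK3 inhibitor. The counts over all genes in these comparisons are those given for the signalling genes.

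The 5 genes followed one another closely, with Pearson r of 0.90 to 0.99 between pairs over the 9 fitted group means. The points share their arrays, so these values only describe the pattern. Among 1156 other genes whose group means spanned at least 1 log2 unit, the 8 with the highest mean r to the 5 were Slfn9 (0.972), Irf1 (0.971), Gm12250 (0.970), Ppa1 (0.969), Psme1 (0.968), Gm12185 (0.967), Trim21 (0.967) and Ndufaf4 (0.966). Of these, Irf1 had 8.86 and 8.81 at 0.25 µM of the JAK1 inhibitor, and 8.63 and 9.01 at 0.25 µM of the JAK3 inhibitor, against 9.35 to 9.97 with IL-2 alone. It kept 47.1% of its IL-2 difference with the JAK1 inhibitor and 46.1% with the JAK3 inhibitor. The medians over the 5 GTPases were 45.9% with the JAK1 inhibitor and 44.4% with the JAK3 inhibitor. These shares come from the same group means that ranked Irf1, so they describe its likeness and do not test it.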

How the data were processed

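Per the labels' protocols, RNA from splenic NK cells was prepared with TriZol and hybridized to 1 array per sample. Per the submitters' processing notes, Affymetrix Power Tools and RMA were used, without versions. The deposited table holds intensities of 24922 probe sets in 19 samples, and their log2 was taken here. The reason for the 2 intensity sets is not given in the labels.

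Probe sets with 1 gene symbol in the platform annotation (21425, with 1399 of several symbols and 2098 of none) were kept, the brightest per gene, giving 19752 genes. limma 3.58.1 in R 4.3.3 was fitted on all 19 samples (lmFit with a mean per group and a term for the intensity set, 9 residual degrees of freedom, eBayes with an intensity trend). The Benjamini-Hochberg adjustment ran over all genes, and calls are at 0.05. A fit with 1 sample in an arm borrows its spread from the other groups. Slopes were taken per 4-fold dose step. The scripts were tested on simulated data. The alternatives were fits within each set, quantile normalization, the compared groups alone, a replicate block, no dim genes, mean probe sets, no trend, each replicate left out and, chosen after seeing the data, all probe sets. The members and gene lists were chosen with earlier results of these data known. Named genes were all members, up to 6 genes per list with the smallest p, a few signalling genes fixed by name and the 8 genes of most similar pattern. Listed genes without a probe set of their own were not analysed here. Promoter windows came from RefSeq. Python 3.11.15, pandas 2.3.3, numpy 2.4.6 and matplotlib 3.10.9 made the tables and plots.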

Additional observations from a re-analysis of the deposited data

Results flagged for a closer look

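The effects of the inhibitors on 2 genes upstream of the GTPases differed by the test of the difference itself at 0.25 µM. The difference between the JAK1 and the JAK3 inhibitor, on the log2 scale, was 2.76 for Ifng and 1.08 for Socs1, both higher with the JAK1 inhibitor (limma adjusted p = 1.56e-06 and 0.00603, 2 samples against 2). Both samples with the JAK1 inhibitor were above both with the JAK3 inhibitor in either gene. The 5 GTPases gave -0.10 to 0.18 in the same test, and none passed.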

How the results depend on the processing

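Of 1000 values of single GTPase genes under other settings, 0 that were called reversed, and 56 changed sign with no call on either side. Within the high-intensity set, with 1 residual degree of freedom, 0 of 5 genes were called for IL-2 against untreated cells and for 0.25 and 1 µM of either inhibitor against IL-2. Within the low set alone, 1 gene was called at 0.25 µM of the JAK3 inhibitor, 2 were at 0.25 µM of the JAK1 inhibitor and 1 was for the JAK3 slope. The JAK3 slope count was also 1 after quantile normalization, 2 with the compared groups alone and 1 without the intensity trend. In those 3 settings 36, 59 and 27 of all genes were called with a lower slope. At 0.0625 µM of the JAK1 inhibitor, with its 1 sample, the changes were -1.82 to -0.53 with the compared groups alone. The cause of these shifts was not tested. With 1 replicate left out, calls were lost at 0.25 µM of the JAK3 inhibitor and at 0.25 and 1 µM of the JAK1 inhibitor, as described above. In each of these fits the changes stayed below 0, as did the JAK3 slopes. With the replicate number as a block the changes at 0.0625 µM of the JAK1 inhibitor ran from -1.38 to 0.47. There 1 gene, Iigp1, was below 0 and lost its call, and 4 were above 0. In that fit the counts were 3 at 0.25 µM of the JAK1 inhibitor, and 4 at 0.25 and at 4 µM of the JAK3 inhibitor (Gbp3, adjusted p = 0.515 and 0.107, by limma). Same-numbered samples had r of -0.54 to 0.60 within an intensity set (23 pairs, median -0.17) and -0.33 to 0.70 across sets (15 pairs, median 0.34, beside 0.04 for different numbers). The pairs' r was not above 0.1 throughout, so the numbers were not taken to pair the samples, which the labels do not settle. The median share of the IL-2 difference left at 1 µM was 21.2% within the low set and 7.64% after quantile normalization for the JAK3 inhibitor, and 3.91% and 1.41% for the JAK1 inhibitor. Groups of 1 or 2 samples limit all inhibitor results, and the 0.0625 and 4 µM groups have no sample in the high-intensity set.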
